A study of Mus musculus with 2 samples.

Results

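Growth factors that act on vessels, stroma and muscle were followed through the immune cells of the injured newborn mouse heart, to ask which class of cell held the transcripts of each factor and how those levels stood in hearts without Lyve1. The set was 10 genes chosen by name, Vegfa, Vegfb, Igf1, Pdgfb, Pdgfc, Areg, Hbegf, Nrg1, Osm and Tgfb1, out of 32285 genes counted, and all 10 were found in both libraries. Single-cell RNA-seq had been run on live leukocytes of heart ventricles, sorted as CD45-positive and negative for the dead-cell dye 7-AAD. A library came from WT mice and another from Lyve1 KO mice, a global Lyve1-/- knockout that removes the hyaluronan receptor LYVE-1 from every cell type, lymphatic vessels included. Both groups had myocardial infarction by ligation of the left anterior descending artery at postnatal day 2, and hearts were collected 7 days after it, at 9 days of age. Each library pooled 5 hearts, and no uninjured or sham heart was part of the comparison. The strain of the WT mice was given only as C57BL/6 or CD1 for the study as a whole, so strain and genotype cannot be told apart here.

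Growth factors of this kind are secreted or shed from the cell surface and act on neighbouring cells through receptor tyrosine kinases, cytokine receptors or serine/threonine kinase receptors. In the heart, VEGF family ligands act on endothelial cells, PDGF ligands on pericytes and fibroblasts, neuregulin and other EGF family ligands on ERBB receptors of cardiomyocytes and stroma, IGF1 on most cell types, and TGF-beta on fibroblasts and leukocytes. The newborn mouse heart can regenerate for a few days after birth, and macrophages that settle there before birth are needed for that response. Such resident macrophages lack the chemokine receptor CCR2 and include the LYVE-1+ cells, whereas CCR2+ macrophages descend from blood monocytes.

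After limits on genes, molecules and mitochondrial share and removal of likely doublets, 4187 WT cells with 63757770 UMIs (unique molecular identifiers, each standing for one captured transcript) and 3391 KO cells with 57233748 UMIs were kept. The median cell had 11106 UMIs in the WT and 12856 in the KO library, and 3 kept barcodes were common to both. Cells were grouped without use of the 10 genes and named "-like" from marker genes. CCR2- macrophage-like cells numbered 1233 in the WT library (29.4% of cells) and 552 in the KO library (16.3%). The other main classes, with at least 50 cells in each library, were CCR2+ macrophage-like, classical monocyte-like, non-classical monocyte-like, neutrophil-like, T and NK cell-like and B cell-like cells. Small classes, among them group 2 innate lymphoid cell-like (ILC2-like) cells with 47 WT and 55 KO cells, are described apart. Lyve1, the targeted gene, was at 523 CPM (counts per 1000000 UMIs) in CCR2- macrophage-like cells of the WT library and at 21.0 CPM in those of the KO library, so the labels matched the data. Both pools held male and female mice. Cells with Y-linked but no Xist transcripts (male cells) made up 65.6% of WT and 59.3% of KO cells that could be assigned. A further 1167 WT and 972 KO cells had no sex assigned. Levels by sex are given, WT before KO, for some genes and classes only, so their absence elsewhere does not mean that the sexes were alike. The sexes are different hearts of each pool, so sex and heart cannot be told apart. Because each genotype was a single library, no test between genotypes was possible. Intervals in parentheses are exact 95% intervals for counting error alone and leave out how hearts differ, and fewer transcripts per cell cannot be told apart from fewer cells making them in a level summed over a class.

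Of the 10 genes, 5 were highest in CCR2- macrophage-like cells of the WT library among the 7 main classes (Igf1, Pdgfb, Pdgfc, Hbegf and Vegfb). That class was the highest for 19.7% of all 13847 genes for which the 2 libraries summed to 100 UMIs or more. Vegfa and Nrg1, 2 of 10, were highest in CCR2+ macrophage-like cells, which led for 4.96% of genes. Osm was highest in neutrophil-like cells (10.2% of genes), Tgfb1 in classical monocyte-like cells (5.73% of genes) and Areg in non-classical monocyte-like cells (13.6% of genes), 1 gene each. The same class led in both libraries for 8 of the 10 genes, all but Pdgfb and Areg, against 72.9% of all genes. Ranked instead by the share of cells with a UMI, each cell thinned to 3000 UMIs, the same class led in the WT library for 9 of the 10 genes, with Areg led by CCR2+ macrophage-like cells.

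**Figure D1:**
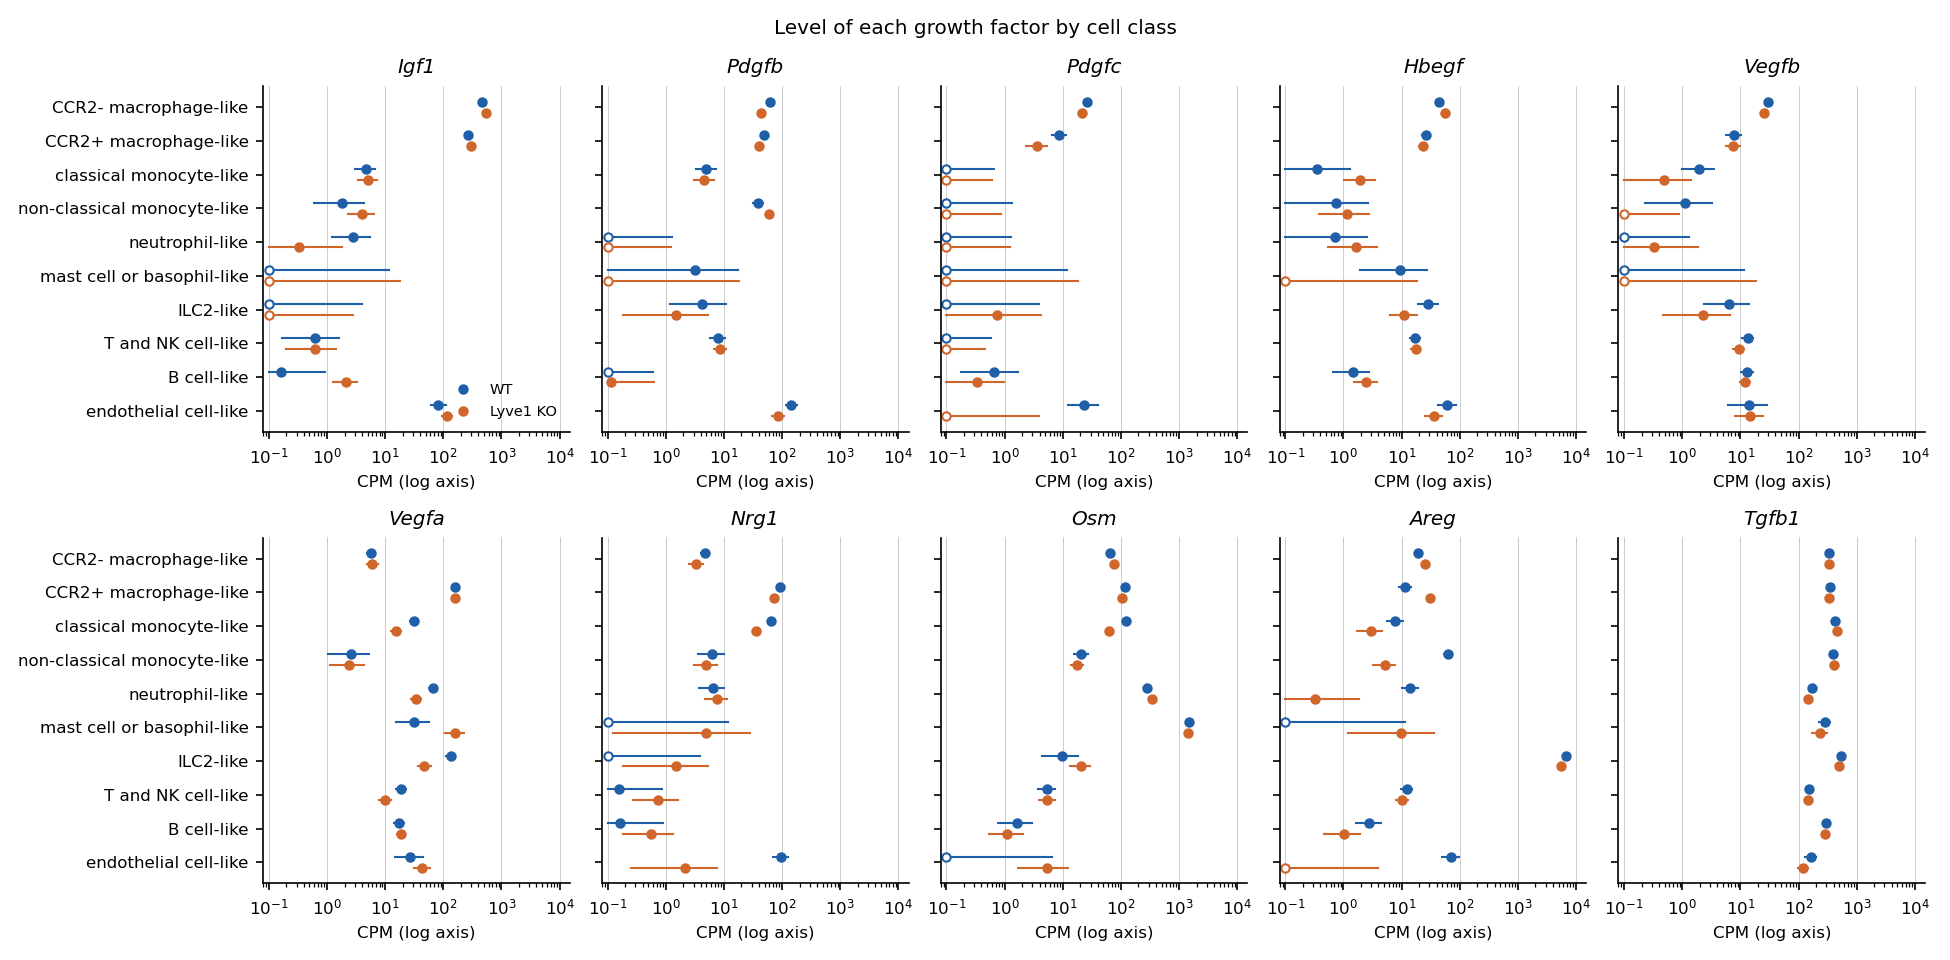
Level of each of the 10 genes in 10 cell classes of the WT (blue) and Lyve1 KO (orange) libraries, in CPM on a log axis, each point a class sum and each bar its exact 95% counting interval. Open points mark classes with 0 UMIs and are drawn, like bars that reach 0, from the left edge. Igf1 lies at 271 CPM or more in both macrophage-like classes and near 0 in lymphocyte-like classes, while Tgfb1 lies between 119.8 and 545 CPM in all 10.

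A class supplies a transcript through its level and through its size. Macrophage-like and monocyte-like cells together made up 46.4% of WT and 38.8% of KO cells, and held 68.0% and 56.3% of all UMIs. They held most of the WT UMIs of 9 of the 10 genes, all but Areg, against 81% of all genes tested, so a share of this kind is near the background. Supply was more concentrated within classes than the class totals show. The fewest cells that together held 50% of a gene's WT UMIs were 7 for Areg, 23 for Nrg1 and 42 for Vegfa, and 239 for Igf1 and 605 for Tgfb1. In the KO library these numbers were 10, 14, 40, 111 and 475, so Areg and Nrg1 came from the fewest cells and Tgfb1 from the most in both.

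**Figure D2:**
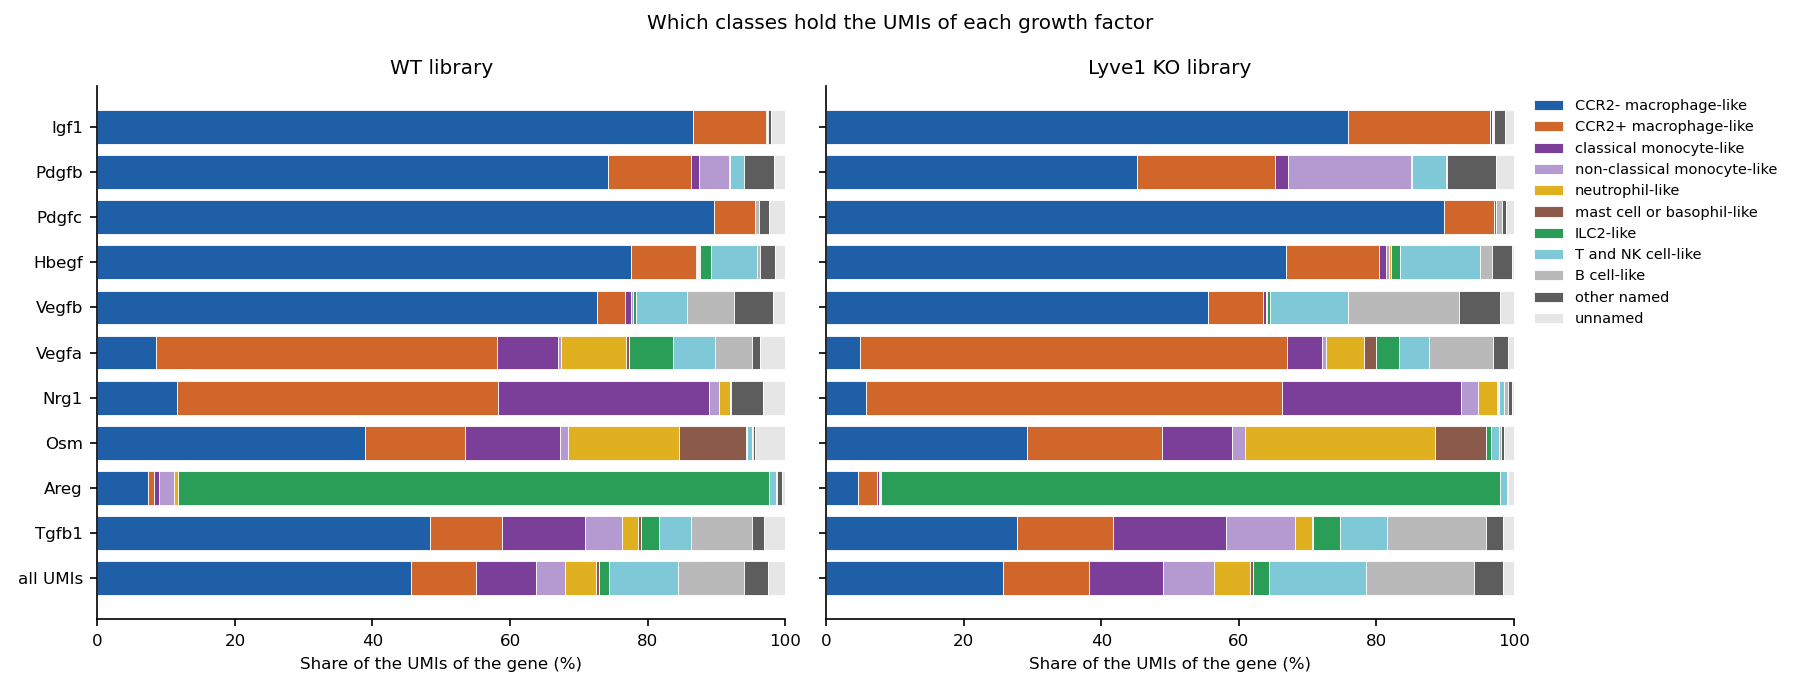
Share of each gene's UMIs held by each cell class, in percent of the gene's UMIs over all kept cells, with WT and Lyve1 KO bars side by side and the classes as stacked colours. The CCR2- macrophage-like part of the Pdgfb bar is 74.2% in WT and 45.2% in KO, that of the Pdgfc bar is nearly equal (89.7% and 89.8%), and the ILC2-like part fills most of both Areg bars.

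Igf1, a hormone-like factor that promotes survival and growth of muscle and other cells, was a macrophage transcript. Igf1 (ENSMUSG00000020053) lies at chr10:87858265-87937042 on the + strand of GRCm38 and overlaps the antisense gene Igf1os. Its level in CCR2- macrophage-like cells was 454 (446 to 462) CPM in the WT library and 534 (522 to 546) CPM in the KO library, a ratio of KO to WT of 1.18 (1.14 to 1.21). CCR2+ macrophage-like cells followed at 271 (258 to 284) and 299 (286 to 311) CPM. The intervals of these 2 classes did not overlap in either library, and both were somewhat higher in the KO library. By sex the KO level was higher in female cells of both classes, at 367 and 576 CPM in the CCR2- and 139.5 and 242 CPM in the CCR2+ class. In male cells the CCR2- levels were 497 and 502 CPM, with 1 inside the interval of the ratio, and the CCR2+ level was lower in KO at 347 and 313 CPM. B cell-like and T and NK cell-like cells together gave 5 and 24 UMIs, a measure of transcripts from other cells in those droplets. With every cell thinned to 3000 UMIs, 61.4% of WT and 65.4% of KO CCR2- macrophage-like cells had an Igf1 UMI, against 0% and 0.432% of B cell-like cells. Without thinning the shares in CCR2- macrophage-like cells were 86.2% and 86.2%. Over all kept cells the order turned. Igf1 was at 239 (235 to 243) CPM in the WT and 181 (177 to 184) CPM in the KO library, a log2 ratio of -0.38. CCR2- macrophage-like cells held 86.6% (86.0% to 87.1%) of WT and 75.8% (75.0% to 76.7%) of KO Igf1 UMIs, so a class with a slightly higher level but fewer cells gave a lower total.

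Pdgfb is the ligand that recruits pericytes and smooth muscle to new vessels. Pdgfb (ENSMUSG00000000489) lies at chr15:79995874-80014977 on the - strand of GRCm38, with Gm41361 on the opposite strand. Its level was also led by CCR2- macrophage-like cells in the WT library, at 62.4 (59.6 to 65.4) CPM against 43.5 (40.2 to 47.0) CPM in the KO library. The ratio of KO to WT was 0.697 (0.636 to 0.763). The direction turned with sex in this class, with 69.0 and 30.9 CPM in male and 46.1 and 60.8 CPM in female cells. In non-classical monocyte-like cells, the patrolling monocytes of the vessel wall, Pdgfb lay the other way, at 39.0 (32.0 to 47.2) and 59.6 (52.5 to 67.3) CPM with a ratio of 1.53 (1.21 to 1.93). Non-classical monocyte-like cells were therefore the highest main class in the KO library. CCR2- macrophage-like cells held 74.2% of the WT and 45.2% of the KO Pdgfb UMIs. Pdgfb is also carried by platelets and by endothelial cells. Platelet markers summed to 2829 CPM in WT and 2153 in KO CCR2- macrophage-like cells, and to 1369 and 609 CPM over all kept cells, with Gp9 alone of the 8 at 0, in KO CCR2- macrophage-like cells. Pf4 among them is also a transcript of resident macrophages. Their part in the Pdgfb difference was not tested. The few endothelial cell-like cells in the sort had 145 (115 to 180.2) CPM in the WT (25 cells) and 85.9 (68.2 to 107) CPM in the KO library (35 cells). This class differed in make-up between the libraries, with a median of 18593 and 3977 UMIs per cell, fibroblast markers at 1623 and 4627 CPM, cardiomyocyte markers at 394 and 1735 CPM and neutrophil markers at 0 and 1037 CPM. The part of these cells in its levels of this and other genes was not tested.

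Pdgfc, a PDGF receptor alpha ligand made with a latent domain that proteases remove, had the largest share of its UMIs in a single macrophage class. Pdgfc (ENSMUSG00000028019) lies at chr3:81036416-81214040 on the + strand of GRCm38, with Gm16000 on the opposite strand. Its level was 26.6 (24.7 to 28.5) CPM in WT and 21.6 (19.2 to 24.1) in KO CCR2- macrophage-like cells, which held 89.7% and 89.8% of its UMIs. CCR2+ macrophage-like cells had 8.63 (6.45 to 11.3) and 3.63 (2.37 to 5.32) CPM, below CCR2- macrophage-like cells in both libraries with intervals apart. Over all kept cells Pdgfc had the largest difference of the 10 on the log2 scale, 13.5 (12.6 to 14.4) CPM in the WT and 6.17 (5.54 to 6.85) CPM in the KO library (log2 ratio -0.54 with 10 CPM added). The plain ratio was 0.457 (0.402 to 0.518), and with 1 CPM added in place of 10 the difference was past 2-fold.

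Hbegf (ENSMUSG00000024486), a membrane-anchored EGF family ligand released by metalloproteases, was at 44.1 (41.8 to 46.6) CPM in WT and 55.3 (51.5 to 59.2) in KO CCR2- macrophage-like cells, with a ratio of 1.25 (1.15 to 1.37). In male cells the levels were 41.5 and 65.3 CPM and in female cells 46.3 and 43.7 CPM, where the interval of the ratio held 1. A small cluster of the class, led by Saa3, Prg4 and Marco, held 195 of the 1282 WT and 311 of the 813 KO UMIs. In the cluster led by Ccl8 and Lyve1 the KO level was lower (136 and 86.1 CPM). In that led by Olfml3 and Sox4 it was higher (11.4 and 20.6 CPM). The Saa3 cluster, with Hbegf at 69.6 and 107 CPM, held 2803123 of the 29043009 WT UMIs of all genes in the class. Among KO cells it held 2895483 of 14708665, so it weighs more in the KO level of the class. A setting without this cluster was run, as described below, but its Hbegf ratio for the class is not given. The ratio of 1.25 is not a rise shared by all clusters of the class. With each cluster in place of each class weighted by its WT share, the KO level over all kept cells was below WT (log2 -0.08, against 0.16 by class). CCR2+ macrophage-like cells had 25.9 (22.0 to 30.3) and 23.1 (19.7 to 26.9) CPM. By sex they had 37.6 and 28.6 CPM in male cells and 4.42 and 16.2 CPM in female cells, the latter from 10 and 42 UMIs. T and NK cell-like cells came to 17.1 and 17.5 CPM, with 27.0 and 12.5 CPM in male and 7.91 and 32.0 CPM in female cells. Their UMIs were 109 and 142, most of them in a single cluster. That cluster, led by the gamma-delta T cell genes Cd163l1 and Trdv4, had 52 cells in each library and 183 and 165 CPM of Hbegf, from 100 and 131 UMIs. In it Areg was at 128 and 91.9 CPM, from 70 and 73 UMIs, and rested on few cells. Of the 78 WT and 83 KO Areg UMIs of the T and NK cell-like class, 68 and 68 lay in 2 and 3 cells with 10 or more. All of these cells had UMIs of ILC2 markers, 48 in WT and 85 in KO, as did 62.2% and 67.2% of all cells of the class. Whether these were T cells was not tested. Endothelial cell-like cells had Hbegf at 60.9 (42.1 to 85.0) CPM in WT, an interval that overlaps that of CCR2- macrophage-like cells, and at 36.1 CPM in KO.

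Areg, an EGF receptor ligand of tissue repair that type 2 lymphocytes are known to make, stood apart from the other 9. Areg (ENSMUSG00000029378) lies at chr5:91139599-91148432 on the + strand of GRCm38. ILC2-like cells, 47 in the WT and 55 in the KO library, held 85.9% (85.1% to 86.7%) of the WT and 90.1% (89.4% to 90.7%) of the KO Areg UMIs. Their level was 6795 (6629 to 6964) CPM in the WT and 5496 (5371 to 5623) CPM in the KO library, and 43 and 53 of the cells had an Areg UMI. The KO level was lower within the class, with a ratio of 0.809 (0.782 to 0.837), while over all kept cells Areg was at 116 (114 to 119) CPM in WT and 143 (139.5 to 146) in KO. A single ILC2-like cell gave 867 of the 6370 WT UMIs of the class, and another 678 of the 7351 KO UMIs. Without the top cell of each library the class was at 5992 and 5183 CPM, a log2 ratio of -0.21 with 10 CPM added. The narrow interval leaves out how these few cells differ. In the main classes Areg levels were far lower. CCR2- macrophage-like cells held the most Areg UMIs of these classes, 546 in WT and 377 in KO, at 18.8 and 25.6 CPM. Their cluster led by Saa3, Prg4 and Marco held 192 and 295 of them. The direction turned with sex, at 13.1 and 35.4 CPM in male and 24.8 and 14.1 CPM in female cells. CCR2+ macrophage-like cells had 11.5 (8.91 to 14.5) CPM in the WT and 31.3 (27.3 to 35.7) CPM in the KO library, a ratio of 2.73 (2.08 to 3.63), or 0.95 on log2 of CPM with 10 added, the scale on which a 2-fold difference was called. In the KO library 187 of the 224 UMIs lay in 4 cells with 10 or more, of which 3 also had a UMI of an ILC2 marker, as did 34.1% of all KO cells of the class. B cell-like and T and NK cell-like cells together had 7.61 CPM in the WT and 5.39 CPM in the KO library. Barcodes of a low-depth cluster led by the haemoglobin gene Hbb-bs, which carry mixed transcripts, had 67.7 and 163 CPM, and the part of free transcripts in the macrophage levels was not tested. Non-classical monocyte-like cells had 63.3 (54.2 to 73.5) and 5.16 (3.23 to 7.81) CPM, the only difference among the 10 genes past 2-fold in a main class (log2 ratio -2.27 with 10 CPM added, a call made for 0.435% of the genes tested in that class). It rested on few cells. The 172 WT UMIs came from 7 cells, and 1 cell gave 107 of them. Without the top cell of each library the levels were 24.1 and 2.12 CPM, a log2 ratio of -1.49 from 74 UMIs, below the 100 required for a call. The 3 WT cells with 10 or more Areg UMIs had 0 UMIs of the 8 ILC2 markers, against 8.47% of all WT cells of the class with any.

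Areg and Tgfb1 also represent opposite ends in how widely the 10 genes were expressed, and the bases before their RefSeq starts are shown to let both be read beside their levels. RefSeq upstream sequences matched 6 of the 10 genes, and the stretches below are on the + strand of GRCm38.p6, 5′ to 3′, ending 1 base before the start. The Areg stretch is at chr5:91139499-91139598, with the cAMP response element TGACGTCA and the TATA motif TATAAA in capitals. The Tgfb1 stretch is at chr7:25686832-25687001, with the GC box GGGCGG of either strand in capitals.
Areg: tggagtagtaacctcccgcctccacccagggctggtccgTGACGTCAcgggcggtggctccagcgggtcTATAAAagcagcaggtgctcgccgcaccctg
Tgfb1: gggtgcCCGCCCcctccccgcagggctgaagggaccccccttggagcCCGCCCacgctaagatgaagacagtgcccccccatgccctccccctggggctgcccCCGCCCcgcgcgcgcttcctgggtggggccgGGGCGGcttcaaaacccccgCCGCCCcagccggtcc
Searched on both strands in the 250 bases before each start, TGACGTCA was found in 1.55% of 32851 promoters and TATAAA in 12.4%, and among the matched members in Areg alone. GGGCGG was found in 32.7% of promoters and 5 or more times in 1.93%, the number Tgfb1 has, and also before Areg, Vegfa and Vegfb. These matches are letters in a window and say nothing of what binds there.

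Nrg1, the ERBB ligand that acts on cardiomyocytes, was highest in CCR2+ macrophage-like and classical monocyte-like cells among the main classes. Nrg1 (ENSMUSG00000062991) lies at chr8:31814551-32884029 on the - strand of GRCm38. CCR2+ macrophage-like cells had 92.5 (84.9 to 100.5) CPM in the WT and 71.8 (65.8 to 78.3) CPM in the KO library, and classical monocyte-like cells had 65.3 (58.8 to 72.4) and 36.1 (31.5 to 41.2) CPM. The ratio of KO to WT was 0.777 (0.688 to 0.877) in the former and 0.553 (0.466 to 0.655) in the latter. CCR2- macrophage-like cells had 4.72 and 3.33 CPM, far below both. The CCR2+ macrophage-like and classical monocyte-like levels were lower in the KO library, and their intervals did not overlap between libraries. In CCR2+ macrophage-like cells this was so in female cells (87.4 and 28.1 CPM) and not in male cells (98.8 and 100.1 CPM), while in classical monocyte-like cells both sexes were lower, at 84.8 and 42.2 CPM in male and 54.9 and 30.5 CPM in female cells. With few cells giving most Nrg1 UMIs, the highest single cell held 10.1% of WT and 19.6% of KO Nrg1 UMIs in CCR2+ macrophage-like cells. Endothelial cell-like cells had 94.9 (71.1 to 124) CPM in WT and 2.12 (0.257 to 7.66) CPM in KO, from 53 and 2 UMIs, and 5 of the 25 WT and 1 of the 35 KO cells had any.

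Vegfa is the main growth factor for vessel sprouting. Vegfa (ENSMUSG00000023951) lies at chr17:46016993-46032369 on the - strand of GRCm38. It was highest in CCR2+ macrophage-like cells, at 161 (151 to 171) CPM in WT and 159.8 (151 to 169) in KO, a ratio of 0.992 (0.910 to 1.08). These cells held 49.6% of WT and 62.1% of KO Vegfa UMIs while making up 9.45% and 12.5% of all UMIs. CCR2- macrophage-like cells, the larger class, had 5.78 (4.94 to 6.73) and 6.05 (4.86 to 7.45) CPM. The direction turned with sex there, with 4.76 and 8.03 CPM in male and 8.48 and 2.58 CPM in female cells. Among the main classes, neutrophil-like cells were second at 65.3 (56.2 to 75.4) and 33.7 (27.4 to 40.9) CPM, with a ratio of 0.515 (0.401 to 0.660), and classical monocyte-like cells were at 31.1 (26.6 to 36.0) and 15.4 (12.4 to 18.8) CPM. Over both sexes Vegfa in CCR2+ macrophage-like cells thus differed by no more than counting error allows, but it was higher in KO male cells (129 and 153 CPM) and lower in KO female cells (214 and 169 CPM), each with an interval of the ratio that left out 1. In neutrophil-like and classical monocyte-like cells the KO level was lower with intervals apart. In the former the female levels, 17.5 and 29.1 CPM, came from 5 and 12 UMIs, and the male levels, 89.4 and 29.2 CPM, from 116 and 32. Of the 351 WT and 337 KO neutrophil-like cells 148 and 110 were male and 26 and 35 female. The rest had no sex assigned, so whether the lower KO level holds beyond male cells cannot be told. Neutrophil markers in classical monocyte-like cells summed to 1822 CPM in WT and 964 CPM in KO, with 0 and 1 of the 12 at 0, and their part in the Vegfa difference of that class was not tested. T and NK cell-like cells had 18.8 (15.6 to 22.5) and 9.97 (7.91 to 12.4) CPM, and B cell-like cells 17.2 and 18.9 CPM. In female T and NK cell-like cells the levels were 27.1 and 5.26 CPM and in male ones 7.84 and 12.7 CPM. Their cluster led by Arpp21 and Dntt, 140 WT and 69 KO cells, held 78 of 120 WT and 34 of 81 KO Vegfa UMIs. In that cluster Vegfa was at 25.9 and 22.0 CPM, and the part of its size in the difference of the class was not tested. In the WT library 101 of 185 neutrophil-like Vegfa UMIs came from the cluster led by Acod1 and Il1rn, genes of activated myeloid cells, at 196 CPM in 79 WT and 59.0 in 47 KO cells. In the KO library it was 18 of 102, and 1 cell gave 23.2% of the WT UMIs of the class. Vegfb, a VEGFR1 ligand linked to heart muscle and fat metabolism, lay elsewhere. Vegfb (ENSMUSG00000024962) lies at chr19:6982473-6987651 on the - strand of GRCm38. It was highest in CCR2- macrophage-like cells at 29.3 (27.3 to 31.3) CPM in WT and 25.2 (22.7 to 27.9) in KO, with B cell-like cells at 13.1 and 12.1 CPM. In 11 WT and 7 KO cardiomyocyte-like cells it was at 299.6 (212 to 411) and 93.7 (37.7 to 193) CPM, from 38 and 7 UMIs with 1 cell giving 68.4% of the WT UMIs. The name fits the WT cells better than the KO cells, which had macrophage markers at 23207 CPM and cardiomyocyte markers at 13879 CPM, against 2720.1 and 85972 CPM in WT, so the Vegfb levels of this class are not compared between libraries. The 10 cardiomyocyte markers summed to 247 CPM in WT and 80.5 over all KO cells, and their part in the Vegfb totals of 18.4 and 11.7 CPM was not tested.

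Osm is an interleukin-6 family cytokine that acts on cardiomyocytes, fibroblasts and endothelium. Osm (ENSMUSG00000058755) lies at chr11:4236420-4241026 on the + strand of GRCm38. Its level was led by neutrophil-like cells, at 279 (259.7 to 299) CPM in WT and 347 (326 to 369) in KO, a ratio of 1.25 (1.13 to 1.37). Classical monocyte-like cells lay the other way, at 121 (112 to 130.1) and 63.4 (57.3 to 70.1) CPM with a ratio of 0.526 (0.463 to 0.596), in the class where neutrophil markers were also lower in KO. The part of those transcripts was not tested. CCR2+ macrophage-like cells had 117 (109 to 126) and 105 (97.5 to 113) CPM and CCR2- macrophage-like cells 65.6 (62.7 to 68.6) and 75.6 (71.2 to 80.2) CPM. By sex the former had 102 and 116 CPM in male and 143 and 83.5 CPM in female cells. The latter had 59.3 and 78.6 CPM in male and 75.8 and 72.0 CPM in female cells. Osm was thus carried by 4 myeloid classes, and by size CCR2- macrophage-like cells held the largest share, 39.0% of WT and 29.1% of KO UMIs. In the KO library neutrophil-like cells came close, with 1052 of the 3818 Osm UMIs against 1112. Mast cell or basophil-like cells, 29 in the WT and 15 in the KO library, had the highest level of any named class at 1499 (1367 to 1639.5) and 1408 (1249.7 to 1582) CPM. A single cell gave 43.1% of the WT and 58.9% of the KO UMIs of that class.

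Tgfb1, the cytokine that promotes matrix deposition and restrains immune cells, was found in every class. Tgfb1 (ENSMUSG00000002603) lies at chr7:25687002-25705077 on the + strand of GRCm38. Over all kept cells it was at 315 (311 to 319.5) CPM in the WT and 305 (300.2 to 309) CPM in the KO library, a ratio of 0.967 (0.947 to 0.987). Among the main classes the highest were classical monocyte-like cells at 431 (414 to 449) and 467 (450.1 to 485) CPM and the lowest were T and NK cell-like cells in WT at 149 (140.0 to 159) and neutrophil-like cells in KO at 143 (129.7 to 157) CPM. CCR2- macrophage-like cells had 335 (328 to 341) and 329 (320.1 to 339) CPM. The spread between main classes was thus larger in both libraries than any difference between libraries within a main class.

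**Figure D3:**
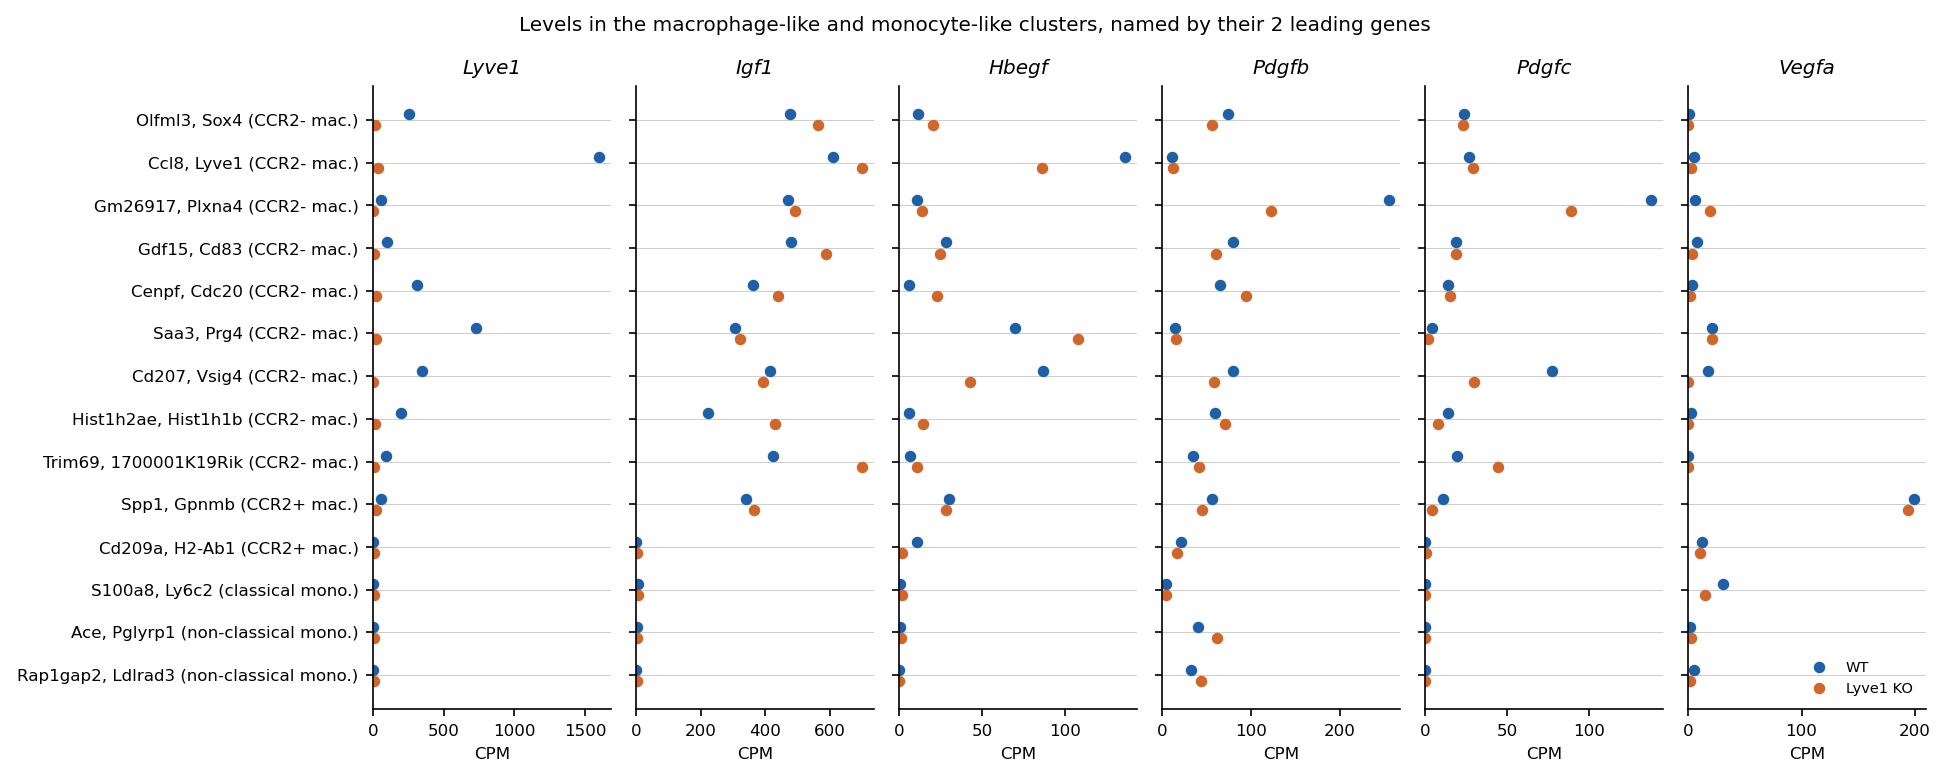
Level of Lyve1 and 5 of the growth factors in the clusters of macrophage-like (mac.) and monocyte-like (mono.) cells, each named by its 2 leading genes, in CPM on a linear axis of its own for each gene. Each point is the sum over the WT (blue) or Lyve1 KO (orange) cells of a cluster, with no interval drawn. Vegfa is highest in the cluster led by Spp1 and Gpnmb, at 199.5 and 194 CPM, while in WT cells Hbegf is highest in the cluster led by Ccl8 and Lyve1 and Pdgfb in that led by Gm26917 and Plxna4.

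CCR2- macrophage-like cells were not uniform. The cluster led by Ccl8, Lyve1 and Folr2, which had the most Lyve1 of the macrophage-like clusters in the WT library, numbered 193 WT and 127 KO cells and was at 1603 and 35.6 CPM of Lyve1. Igf1 in it was at 609 CPM in WT and 701 in KO cells. Hbegf was at 136 and 86.1 CPM, and Pdgfb at 10.8 and 12.5 CPM. The larger cluster led by Olfml3 and Sox4, with 414 WT and 137 KO cells, was the reverse for these 2 ligands, with Pdgfb at 74.2 and 56.6 CPM and Hbegf at 11.4 and 20.6 CPM. So Hbegf was higher in the Ccl8 cluster and Pdgfb in the Olfml3 cluster, in both libraries. At 6000 UMIs per cell, Hbegf was seen in 6.81% of WT CCR2- macrophage-like cells with Pdgfb and 14.8% of those without it, with intervals of 4.15% to 10.4% and 12.5% to 17.4%. In the KO library the shares were 14.8% and 15.2%, with intervals of 8.11% to 23.9% and 11.8% to 19.1%.

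Other clusters added to this picture. The cluster led by Cd207, Vsig4 and Clec4f, genes of tissue macrophages, had Pdgfc at 77.4 CPM in 71 WT and 29.5 in 17 KO cells. In WT cells of this cluster Pdgfb, at 80.0 CPM, and Hbegf, at 86.6 CPM, were both above the level of the class. In KO cells Pdgfb was at 59.0 CPM, above the class, and Hbegf at 42.9 CPM, below the 55.3 CPM of the class. These KO levels of Pdgfb, Hbegf and Pdgfc came from only 22, 16 and 11 UMIs. The highest Pdgfb and Pdgfc levels among the macrophage-like clusters, 255 and 138 CPM in WT cells, lay in a cluster led by Gm26917 and Plxna4, which is of low depth. In KO cells of that cluster they were at 122 and 88.7 CPM. Its CCR2- macrophage name is weak. Only 5 of the markers were found in at least 25% of its cells, against 8 or more in the other clusters of the class. It held 263 of the 1813 WT Pdgfb and 142 of the 772 WT Pdgfc UMIs of the class. The cluster led by Saa3, Prg4 and Marco was 57 of 1233 WT and 50 of 552 KO CCR2- macrophage-like cells, and in it Hbegf was at 69.6 and 107 CPM and Areg at 68.5 and 102 CPM. CCR2+ macrophage-like cells split as well. The cluster led by Spp1 and Gpnmb, 192 WT and 189 KO cells, had Vegfa at 199.5 and 194 CPM, Nrg1 at 115 and 88.0 CPM and Igf1 at 341 and 366 CPM. The cluster led by Cd209a and MHC class II genes had Vegfa at 12.1 and 10.6 CPM and Igf1 at 0 and 3.77 CPM, so the CCR2+ levels of these genes are those of the Spp1 cluster. At 6000 UMIs per cell, Osm was seen in 53.2% of WT Spp1-cluster cells with Vegfa and 28.7% of those without, and in 47.1% and 35.2% of KO cells. The WT intervals, 40.1% to 66.0% and 20.6% to 37.9%, were apart. The KO intervals, 35.1% to 59.4% and 26.2% to 45.0%, overlapped. Other pairs were read in the same way. They were Vegfa with Nrg1, Vegfa with Igf1 and Nrg1 with Igf1 in the Spp1 cluster, and Nrg1 with Osm in classical monocyte-like cells. For each of these the intervals overlapped in both libraries.

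Between the libraries, over all kept cells, 0 of the 10 genes were past a 2-fold difference, read on log2 of CPM with 10 added, against 0.397% of all 13847 genes. The median size of the log2 ratio was 0.24 over the 10 genes and 0.09 over all genes tested. Igf1, Pdgfb, Pdgfc, Vegfb, Nrg1, Hbegf, Osm and Tgfb1 had ratios of KO to WT with intervals below 1, from 0.457 for Pdgfc to 0.967 for Tgfb1. Areg was at 1.23 (1.19 to 1.26) and Vegfa at 1.05 (0.982 to 1.12). Within CCR2- macrophage-like cells 0 of 10 genes that reached 100 UMIs were past 2-fold (0.477% of all genes tested there), within CCR2+ macrophage-like cells 0 of 9 (0.469%), within classical monocyte-like cells 0 of 4 (0.314%) and within neutrophil-like cells 0 of 3 (0.925%). In non-classical monocyte-like cells it was Areg, 1 of 4 (0.435%), and in T and NK cell-like and B cell-like cells 0 of 6 (1.16%) and 0 of 3 (0.653%). The pair past 2-fold rested on few cells, as given for Areg. In the small ILC2-like class Vegfa was also past 2-fold, at 133 (111 to 159) CPM in WT and 47.1 (36.2 to 60.3) in KO, from 125 and 63 UMIs. A single cell gave 30 of the WT UMIs. The difference was in female cells (221 and 48.3 CPM) and not in male cells (50.6 and 50.8 CPM).

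**Figure D4:**
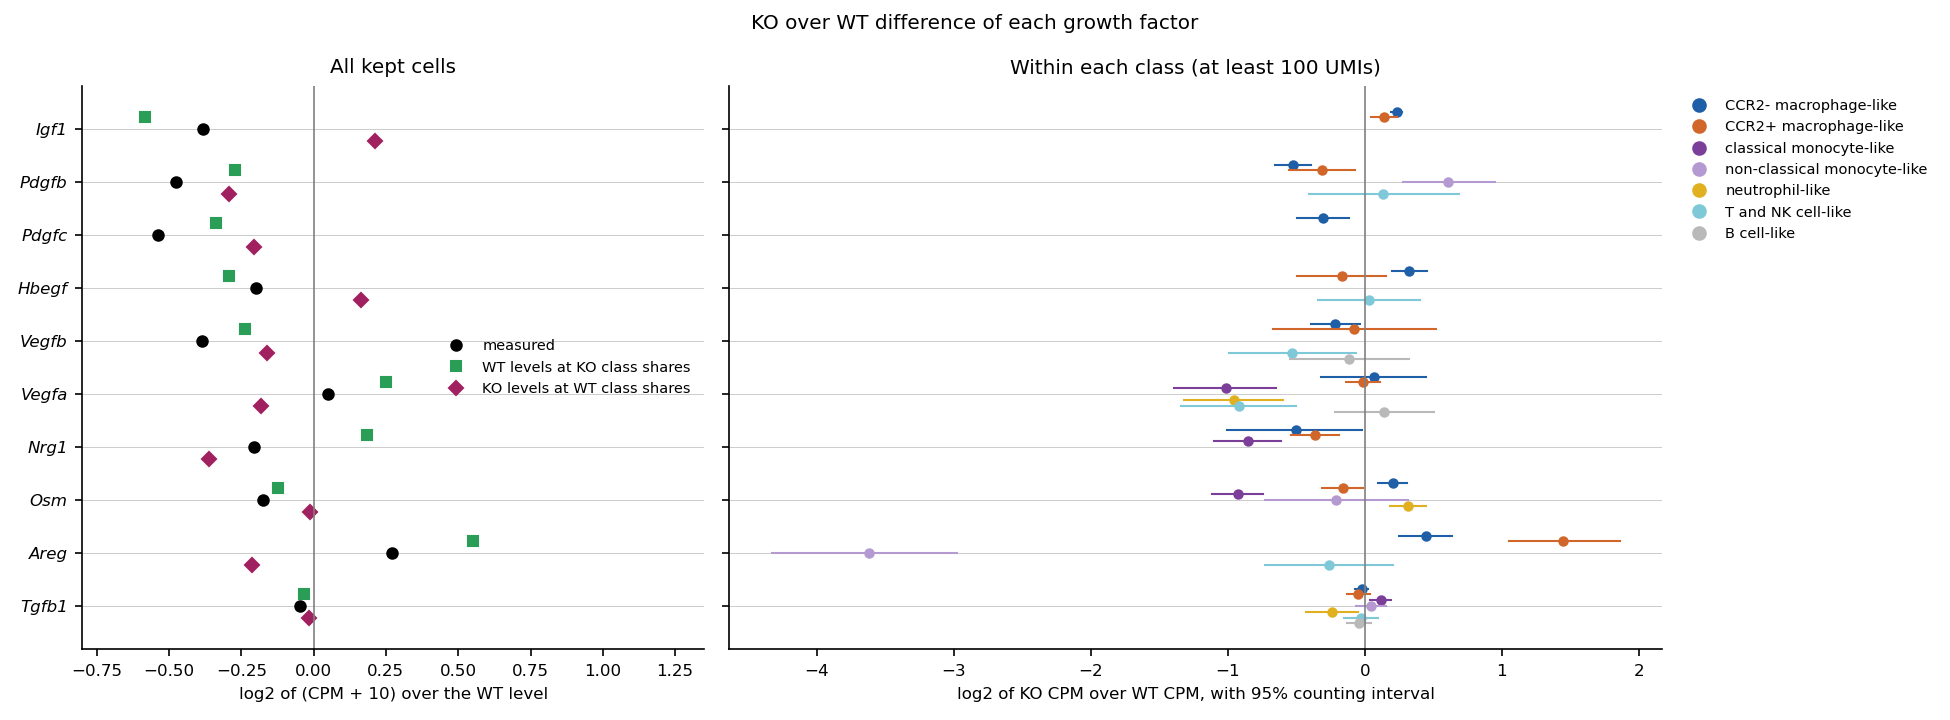
The left panel shows for each gene, over all kept cells, the log2 difference from the WT level on CPM with 10 added, as measured in the KO library (circles), with WT class levels at KO class shares (squares) and with KO class levels at WT class shares (diamonds). The right panel shows the log2 ratio of KO to WT CPM, with nothing added, within the main classes where the gene reached 100 UMIs, with bars for the exact 95% counting interval. For Igf1 the squares and diamonds lie on opposite sides of 0, and Areg in non-classical monocyte-like cells lies farthest from 0 in the right panel.

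Because CCR2- macrophage-like cells held 45.6% of WT and 25.7% of KO UMIs, the difference over all cells was split by arithmetic into class sizes and class levels. With the KO class levels weighted by the WT class shares, Igf1 would stand at 278 CPM against 239 measured in the WT library (log2 0.21). With the WT class levels at the KO class shares it would stand at 156 CPM (log2 -0.58). For Igf1 the class shares alone gave a lower total and the class levels a higher one. Pdgfb was lower by both reckonings, at -0.29 for levels and -0.27 for shares, or -0.13 and -0.36 with the finer clusters as strata. Pdgfc gave -0.21 and -0.34, and Vegfb -0.16 and -0.24. Vegfa, Nrg1 and Areg turned the other way, with lower class levels (-0.18, -0.36 and -0.21) and class shares that gave a higher total (0.25, 0.18 and 0.55). Hbegf had 0.16 for levels over the classes, but -0.08 when the finer clusters were the strata, so its sign depends on the grouping. Osm and Tgfb1 moved by -0.01 and -0.02 for levels over the classes, and by -0.14 and -0.03 over the clusters. The sign of the difference over all cells was thus kept by the class levels for 6 of the 10 genes. These splits are arithmetic on 1 library per genotype and say nothing of hearts within a pool.

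The differences over all kept cells were also read by sex. Igf1 was lower in the KO library in male cells (288 and 179.5 CPM) but not in female cells (177 and 204 CPM). Pdgfb went the same way, 46.2 and 22.0 CPM in male and 27.8 and 32.0 CPM in female cells. Vegfa was higher in KO male cells (24.8 and 33.7 CPM) and lower in KO female cells (39.3 and 31.3 CPM). Nrg1 was lower in KO female cells (19.0 and 8.28 CPM), while in male cells (19.6 and 20.1 CPM) the interval of the ratio held 1.

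Genes around the 10 ligands were read from 5 lists. No gene of any list was past 2-fold over all kept cells, of 15 other ligands of the same families, 11 other angiogenic ligands, 17 receptors, 21 genes of ligand release and binding and 10 genes of the hypoxia response that reached 100 UMIs. The median log2 ratios of the lists lay between -0.04 (receptors) and 0.04 (other angiogenic ligands), beside -0.02 over all genes tested. Within CCR2- macrophage-like cells 3 genes were past 2-fold, all higher in the KO library, 1 of 7 other ligands and 2 of 14 release and binding genes. Of all genes tested there 0.477% were past 2-fold, 39 higher and 14 lower in the KO library. Il6, an inflammatory cytokine of the Osm family, was at 28.2 CPM in WT and 110.2 in KO. Ltbp1, which holds latent TGF-beta in the matrix, was at 2.31 and 26.3 CPM. Thbs1, a thrombospondin that can activate latent TGF-beta and restrains vessel growth, was at 158 and 369 CPM. The cluster led by Saa3 and Prg4, with Il6 among its 10 leading genes, was a larger part of this class in the KO library. Its part in these 3 differences was not tested. In the monocyte-like classes Il6 and Thbs1 went the other way. Il6, 1 of 1 other ligands tested there, was at 28.4 and 4.58 CPM in classical monocyte-like cells (0.314% of all genes past 2-fold). In non-classical monocyte-like cells (0.435%) Thbs1, 1 of 9 release and binding genes, was at 537 and 201 CPM. The hypoxia gene Ankrd37, 1 of 6, was at 65.6 and 23.4 CPM in the same class. In CCR2+ macrophage-like cells (0.469% of all genes past 2-fold) Egln3, an oxygen-sensing hydroxylase and 1 of 9 hypoxia genes, was at 11.8 and 33.7 CPM. The IGF-binding protein Igfbp4, 1 of 13 release and binding genes, was at 104 and 42.6 CPM there. In T and NK cell-like cells (1.16% of all genes past 2-fold) Igfbp4, 1 of 9 release and binding genes, lay the other way, at 82.8 and 179 CPM. The hypoxia gene Ndrg1, 1 of 10, was also past 2-fold in that class and lower in the KO library.

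By level, the lists point to cells outside the macrophages as well, the endothelial cell-like class with the differing make-up given above among them. Igf2 was highest in endothelial cell-like cells at 2305 CPM in WT and 385 in KO, as were Pdgfd (333 and 203 CPM) and the arterial ligand Efnb2 (340.1 and 91.2 CPM). Sema4d, a semaphorin of leukocytes, was highest in neutrophil-like cells at 436 and 309 CPM. Il6 was highest in mast cell or basophil-like cells at 1259 and 1483 CPM, as was Hgf, a factor of vessel and epithelial growth, at 564 and 588 CPM. The VEGF receptor Kdr and the coreceptors Nrp1 and Eng were highest in endothelial cell-like cells, Kdr at 662 and 607 CPM, Nrp1 at 737 and 652 CPM and Eng at 585 and 449.6 CPM. Hif1a, the transcription factor of the hypoxia response, was highest in CCR2+ macrophage-like cells, where Vegfa was, at 232 and 288 CPM. Its relative Epas1 was highest in endothelial cell-like cells (304 and 277 CPM) and the glucose transporter Slc2a1 in neutrophil-like cells (224 and 143 CPM). Thbs1 and Cd9, which associates with Hbegf on the cell surface, were highest in neutrophil-like cells, Thbs1 at 4132 and 2564 CPM and Cd9 at 1513 and 1039 CPM in the WT and KO libraries. Furin, a protease that cleaves growth factor precursors, was highest in ILC2-like cells at 847 and 885 CPM.

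The genes whose levels across classes were most like each ligand were found for the 9 ligands at 50 CPM or more in a class of the WT library, all but Pdgfc, from Pearson's r of log2 CPM with 10 added, over 13 named classes of both libraries, 26 points that share libraries and depth. Igf1 was closest to Mertk (0.97), Rab11fip5 (0.96) and Dab2 (0.96). Pdgfb was closest to Luzp1 (0.89), Cyb5r3 (0.88) and Dbndd2 (0.87). For Hbegf the nearest were Arhgap10 (0.87), Sept8 (0.85) and Cdr2 (0.84). For Vegfb they were Josd2 (0.94), Apoo (0.92) and Ndufab1 (0.91). Vegfa went with Ptgs2 (0.74), Isg15 (0.69) and Hif1a (0.69). Nrg1 went with Vcan (0.81), Gm4117 (0.77) and Dpp6 (0.77). Osm went with Lilr4b (0.92), Nlrp3 (0.91) and Rabgef1 (0.89). Tgfb1 went with Il10ra (0.85), Fndc3a (0.84) and Aup1 (0.80). The nearest to Areg were Npnt (0.94), Il5 (0.93) and Igsf5 (0.93). Hbegf and Vegfb reached 50 CPM in small classes only. For Hbegf it was 25 WT endothelial cell-like cells (60.9 CPM from 34 UMIs). For Vegfb it was 11 WT cardiomyocyte-like cells (299.6 CPM from 38 UMIs). Small classes counted as much as large ones among the 26 points. These correlations describe levels over classes and carry no test.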

How the data were processed

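The authors sorted live CD45+ cells, pooled 5 hearts per genotype and made 10x 5′ libraries. Per the submitters' processing notes, reads were counted with Cell Ranger 8.0.1 against mm10/GRCm38. The deposited values are raw UMI counts per gene and barcode, with no normalization. From these counts, barcodes with fewer than 500 genes or 250 UMIs or over 30% mitochondrial UMIs were left out, following the study's limits, as were the 2.29% (WT) and 2.11% (KO) with the highest doublet scores by the expected rate of 0.4% per 1000 barcodes (scrublet in scanpy 1.11.5, whose own threshold marked only 1 and 4 barcodes and was not used). Cells were clustered in Seurat 5.3.0 (R 4.3.3, 30 components, resolution 0.8, cell cycle scores regressed out), with the 10 genes and the listed genes kept out of the features, and named from fixed markers. Unnamed clusters of low depth held 849 WT and 560 KO cells. In the one led by Hbb-bs, with 326 and 400 barcodes, Igf1 was at 179.7 and 171 CPM. UMIs were summed per class and library and divided by the class total (CPM). Ratios of KO to WT were taken on log2(CPM + 10), for genes whose UMIs summed to 100 or more over the libraries, and called at 2-fold, so changes of low genes are understated. Interval methods were exact Poisson (levels), Clopper-Pearson (shares) and conditional binomial (ratios), at 95%. Only the ratio intervals and the 2-fold call were tried on simulated counts. Those counts were drawn as Poisson, so they say nothing of single cells with many UMIs. The intervals cover counting error of summed UMIs only, and leave out how cells and hearts differ. Cells were assigned a sex from Xist or Y-linked UMIs. edgeR 4.0.16 and DESeq2 1.42.0 gave alternative scaling factors only, since 1 library per genotype allows no test. The genes named were the 10 members, Lyve1, from each list the 3 of highest level and those past 2-fold, and the 3 most alike to each member at 50 CPM or more in a WT class. The members and lists were chosen with earlier results of these data known. Assignment of cells to single hearts was not analysed here. Python 3.11.15, numpy 2.4.6, scipy 1.17.1, pandas 2.3.3 and matplotlib 3.10.9 were used.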

Additional observations from a re-analysis of the deposited data

Results flagged for a closer look

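The ratio of KO to WT over all kept cells went one way in male cells and the other in female cells for 4 genes, each with counting intervals of the 2 ratios on opposite sides of 1. The differences, male minus female on the log2 scale, were 0.58 for Vegfa (0.33 in male and -0.25 in female cells), -0.84 for Igf1 (-0.65 and 0.19), -0.97 for Pdgfb (-0.81 and 0.15) and -0.18 for Tgfb1 (-0.09 and 0.09). These were not tested, and male and female cells come from different hearts of each pool.

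Osm was higher in KO neutrophil-like cells (0.31) and lower in KO classical monocyte-like cells (-0.83), a difference of 1.14 that was not tested. Areg was higher in KO CCR2+ macrophage-like cells (0.95) and lower in KO non-classical monocyte-like cells (-2.27), a difference of 3.22 that was not tested and rests on few cells.

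Small classes outside the main comparison had levels above all main classes in both libraries for 5 genes. Pdgfb was at 145 CPM in WT endothelial cell-like cells, Osm at 1499 CPM in mast cell or basophil-like cells, Tgfb1 at 545 CPM in ILC2-like cells, Areg at 6795 CPM in ILC2-like cells and Vegfb at 299.6 CPM in cardiomyocyte-like cells.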

How the results depend on the processing

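Pairs of gene and class past 2-fold between libraries numbered 1 (Areg in non-classical monocyte-like cells). They numbered 3 with no doublet removal, 3 with a pseudocount of 1 CPM, 2 with no limit on low counts, 4 in cells with Xist and no Y-linked UMIs, 3 in cells with Y-linked and no Xist UMIs, and 0 without the 1% of cells with the most UMIs of the gene, 0 with the mean of log-normalized values and 0 without the single top cell of each class, an alternative chosen after seeing the data. Without the top cells Areg in non-classical monocyte-like cells has too few UMIs to be called. Added pairs were Areg in CCR2+ macrophage-like cells (no doublet removal, 1 CPM and Y-linked cells), Pdgfc over all cells (1 CPM), and Vegfa in ILC2-like and neutrophil-like cells (no doublet removal and Y-linked cells, in that order) and Areg in neutrophil-like cells (no limit on low counts). The 4 pairs in cells with Xist were Nrg1 (CCR2+ macrophage-like), Osm (classical monocyte-like), and Vegfa and Hbegf (T and NK cell-like). Areg in non-classical monocyte-like cells stayed at -1.63 there but from 37 and 17 UMIs, too few to be called. The median size of the log2 ratio was 0.24. It was 0.30 with a pseudocount of 1 CPM, 0.35 in cells with Y-linked and no Xist UMIs, 0.32 without the 1% of cells with the most UMIs, and 0.31 without the cluster led by Saa3, Prg4 and Marco, also chosen after seeing the data. The cause of the other moves was not tested. The other alternatives left both summaries within the limits set. Of 801 log2 ratios recomputed over 17 settings, 87 moved by over the width of 1 side of their counting interval, and 747 kept their sign. None reversed a called value, but only Areg in non-classical monocyte-like cells was called, so this concerns that ratio alone. The WT levels of the 10 genes, each in its highest main class, moved more often. Of 170 recomputed over the same 17 settings, 64 lay outside their counting interval, so those intervals are narrower than the effect of processing. No paired analysis was possible because each genotype had 1 library. Depth limited Vegfa, Pdgfb, Pdgfc, Nrg1, Hbegf and Vegfb, with under 40 CPM over all kept cells, and the small classes, where single cells could set a level.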

Other observations

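Lyve1 transcripts counted in the KO library were not limited to macrophage-like cells, and in some other classes their level was above that of the WT library. ILC2-like cells had 51.6 CPM from 69 UMIs (1.07 CPM in WT) and mast cell or basophil-like cells 49.4 CPM from 10 UMIs (3.15 CPM in WT). CCR2- macrophage-like cells had 21.0 CPM, CCR2+ macrophage-like cells 20.5 CPM, and B cell-like and T and NK cell-like cells together 6.80 CPM from 116 UMIs. In the WT library those lymphocyte-like cells had 0.560 CPM from 7 UMIs.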
